A study of Homo sapiens with 8 samples.

Results

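Among 23433 ChIP-seq peaks called for FLAG-tagged dnTCF1EWT and dnTCF1Emut, 392 (1.67%) fell in an exon, in an untranslated region (UTR), at a transcript end or in a non-coding transcript, and also more than 2000 bp from the nearest transcription start site (TSS). They were taken from the 6 annotated peak lists by the class that HOMER assigned to each peak and by its distance to the nearest TSS. Of 498 peaks with one of these classes, 106 lay within 2000 bp of a TSS and were set aside. The member nearest to the limit lay 2090 bp from a TSS, in the 3' UTR of ALDH3B1 (Peak Score 52.5, dnTCF1EWT 2 h). The nearest peak outside it lay 1994 bp away at the transcript end of PLEKHM1 (Peak Score 73.9, dnTCF1EWT 9 h).

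The study asked what the C-clamp adds to genome-wide DNA binding of TCF1. DLD-1 cells, a human colorectal cancer line with high Wnt signaling, carried a doxycycline-inducible, dominant negative TCF1E with either an intact C-clamp (dnTCF1EWT) or a C-clamp that no longer binds DNA (dnTCF1Emut). Cells of each line received 1 µg/ml doxycycline for 2 or 9 h, or none (0 h), and chromatin was precipitated with anti-FLAG beads. All groups, the uninduced ones included, were grown in blasticidin and zeocin. Each protein was expressed from 1 clonal line and each condition is 1 peak list made from pooled duplicate libraries, so protein, clone and library cannot be told apart, and every test below compares lists rather than conditions. Read depth is unknown, and the Wilson 95% intervals cover counting error only.

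TCF proteins bind the Wnt response element (WRE) through their HMG box, and the E-tail isoforms carry the C-clamp, a second DNA-binding domain that reads a GC-rich Helper site. The authors counted 3 motifs per peak. The WRE was CTTTG, then A or T at the next pair of positions, then C or G. The Helper site was A or G followed by CCGCC, and the short Helper site was A or G followed by CCG, so every Helper site also contains a short one. A dominant negative TCF lacks the β-catenin-binding domain and occupies sites without activating them. HOMER gives each peak 1 class, and its TTS class covers a window at the annotated transcript end that reaches mainly downstream of it. A transcript end, a last exon or a 3' UTR can be far from its own start and close to that of a neighbor. The Peak Score, assigned by MACS, rises with the enrichment over input and with read depth, so scores of different lists are given side by side and are not scaled to each other.

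The dnTCF1EWT lists held 355 of the 392 peaks and the dnTCF1Emut lists 37. They numbered 29 of 1907 peaks at 0 h, 90 of 5585 at 2 h and 236 of 12996 at 9 h for dnTCF1EWT. For dnTCF1Emut they numbered 5 of 708, 26 of 1883 and 6 of 354. As shares these were 1.52%, 1.61% (interval 1.31 to 1.98) and 1.82% (1.60 to 2.06) for dnTCF1EWT, and 0.706%, 1.38% (0.944 to 2.02) and 1.69% (0.779 to 3.65) for dnTCF1Emut. None of the 6 pairs of lists differed in this share by a two-sided Fisher's exact test with Benjamini-Hochberg adjustment over the 6. The odds ratio was 1.17 for dnTCF1EWT against dnTCF1Emut at 2 h (adjusted p = 0.94) and 1.13 for dnTCF1EWT at 9 h against 2 h (adjusted p = 0.94), both from the exact test. Among the top 1000 peaks the first of these was 2.33, from 23 and 10 peaks, and above a score of 67 it was 1.80, neither past the threshold. The highest of the 6, 1.97 for dnTCF1Emut at 2 h against 0 h, rested on 5 peaks in the uninduced list (Fisher's exact test, adjusted p = 0.94).

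Transcript ends were the commonest class, with 211 TTS peaks among the 392, beside 89 in 3' UTRs, 59 in exons, 31 in non-coding transcripts and 2 in 5' UTRs. In dnTCF1EWT, the TTS class made up 55.2% of these peaks at 0 h, 53.3% at 2 h and 55.1% at 9 h, and exons 10.3%, 17.8% and 11.9%. In dnTCF1Emut at 2 h exons were the commonest class, with 10 of 26 (38.5%, interval 22.4 to 57.5), next to 9 TTS peaks (34.6%, 19.4 to 53.8) and 6 in 3' UTRs. The exon interval of dnTCF1EWT at 2 h (11.2 to 26.9) overlapped that of the mutant, and the class makeup was not tested. Non-coding transcripts held 8 peaks of the dnTCF1EWT 2 h list and 0 of the 26 mutant peaks, a count that allows up to 12.9%.

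**Figure D1:**
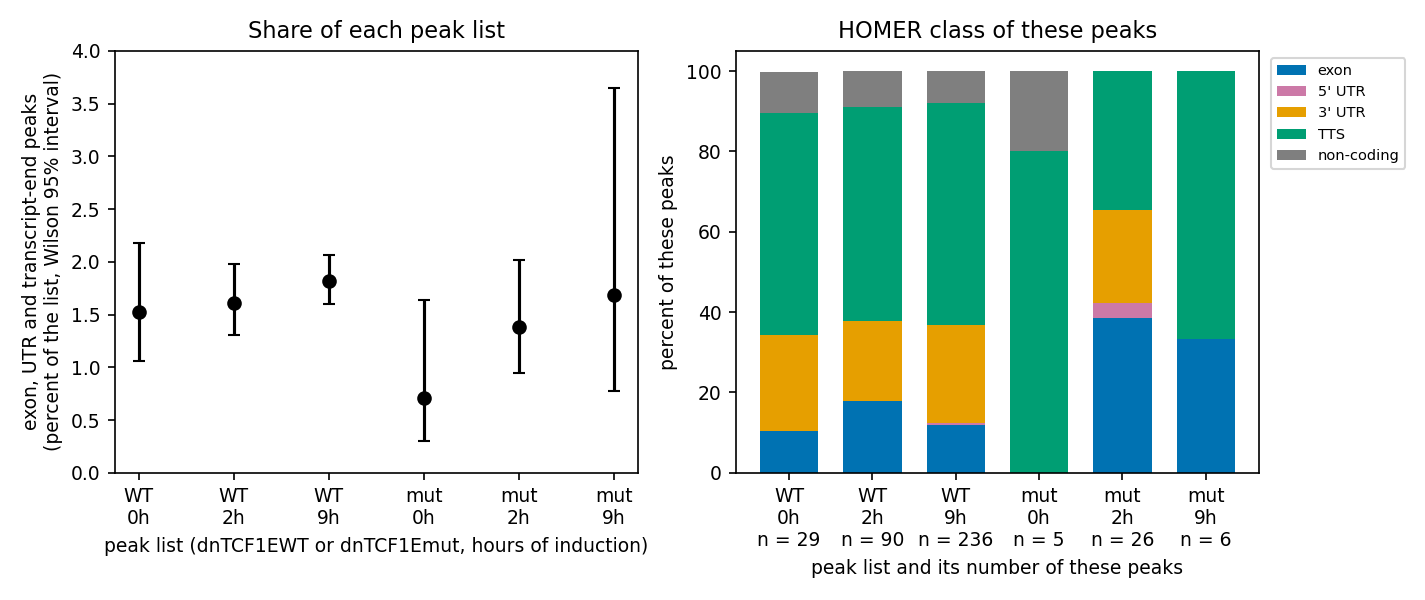
Left, exon, UTR and transcript-end peaks beyond 2000 bp from a TSS as a percent of each of the 6 peak lists, with Wilson 95% intervals. Right, the HOMER class of these peaks as a percent of them, with their number (n) under each bar; the shares on the left run from 0.706% to 1.82% with overlapping intervals, and TTS is the largest class in every list but dnTCF1Emut 2 h.

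Exon peaks had the highest median Peak Score of the classes in dnTCF1EWT at 2 h. It was 100.1 over 16 peaks (range 54.0 to 389), against 59.4 in 3' UTRs, 58.5 at transcript ends and 60.6 in non-coding transcripts. Exon peaks were also longer, with a median of 357.5 bp against 190.5, 199 and 165 bp in the same order. Neither difference was tested. A Peak Score of 100 or more, a limit chosen after the data were seen, was reached by 8 of the 16 exon peaks, 4 of 18 in 3' UTRs, 9 of 48 at transcript ends and 2 of 8 in non-coding transcripts. At 9 h the exon median was 58.8 over 28 peaks, near the 54.5, 57.1 and 55.9 of the same other classes, and 7 of the 28 reached 100. In dnTCF1Emut at 2 h the exon median was 66.2 over 10 peaks and 1 reached 100.

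The highest exon peak lay in exon 5 of 8 of PLEKHM3, which encodes a pleckstrin homology domain protein, at chr2:208795439-208795881 (hg19, as all coordinates here). Its Peak Score was 389 in dnTCF1EWT at 2 h, with no overlapping peak in the other 5 lists. It held 12 short Helper sites, 2 Helper sites and no WRE, at a GC content of 56.4%. The peak in exon 2 of 9 of ABHD6, a lipase that hydrolyzes monoacylglycerols, scored 251 in dnTCF1EWT at 2 h and 107 in dnTCF1Emut at 2 h (chr3:58242138-58242564). It had 1 Helper site and no WRE in both lists, and was not listed at 9 h for either protein. The peak in exon 2 of 5 of SERPIND1, the thrombin inhibitor heparin cofactor II, scored 217 in dnTCF1EWT at 2 h and held 1 WRE (chr22:21134152-21134596). The overlapping dnTCF1EWT peak at 9 h (57.6) was annotated outside these classes, and no mutant list held the region.

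At 9 h the highest exon peaks were different ones. The peak in exon 12 of 17 of NAIP, a sensor of bacterial proteins, scored 197 with 3 WREs and 1 Helper site (chr5:70280639-70281124). NAIP lies in a duplicated stretch of chromosome 5, and how reads from near-identical copies were placed is not given in the sources used here. Exon 2 of 18 of EPB41L2, a membrane skeleton protein of the 4.1 family, held a peak of 133 with 2 Helper sites and no WRE (chr6:131277103-131277492), present only in the dnTCF1EWT 9 h list. A peak of 172 in the last exon of a 27-exon transcript, NM_001080427, was the member farthest from a TSS, 287696 bp upstream of HNMT, the histamine methyltransferase gene (chr2:138433911-138434313). WBP4, a splicing factor with WW domains, had a peak over exon 4 of 10 in the dnTCF1EWT list at 9 h (179) and in dnTCF1Emut at 9 h (114), both with 1 WRE. The overlapping dnTCF1Emut peak at 2 h scored 541 but was annotated outside these classes, so WBP4 was higher in the mutant lists at 2 h than at 9 h and was not listed for dnTCF1EWT at 2 h.

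Among the mutant's exon peaks at 2 h, the next after ABHD6 were AQR, an intron-binding helicase of the spliceosome (exon 2 of 35, 91.0), and HERC1, a giant ubiquitin ligase (exon 15 of 78, 86.0). Neither held a WRE or a Helper site. The AQR region was listed for dnTCF1EWT as well, at 399 for 2 h and 75.2 for 9 h, where the peak was annotated outside these classes. HERC1 was listed for the mutant only.

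One exon peak was already listed before induction. MUC2, the gel-forming mucin of the colon, carried a peak over exon 30 of 50 at chr11:1092690-1093540 with a Peak Score of 134 at 0 h, 161 at 2 h and 97.0 at 9 h in dnTCF1EWT. It was the only member at 0 h in that list to reach 100, and it was absent from the mutant lists. The peak held 20 or 21 short Helper sites, no Helper site and no WRE, and its GC content was 62.8 to 62.9%. A TTS peak of the same gene scored 75.5 at 0 h and had no overlapping peak after induction. Between the MUC2 peaks in rank stood a TTS peak of FAM217A (79.5), without any of the 3 motifs.

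In 3' UTRs the highest peak belonged to KCTD7, a BTB domain protein, in its last exon (chr7:66104748-66105203). It scored 423 in dnTCF1EWT at 2 h, 132 in dnTCF1EWT at 9 h and 123 in dnTCF1Emut at 2 h, with 1 short Helper site and neither a WRE nor a Helper site. The 3' UTR of ARID5B, a DNA-binding chromatin regulator, scored alike with the proteins at 2 h, 119 for dnTCF1EWT and 120 for dnTCF1Emut, and held 2 WREs in both (chr10:63853510-63853957). The 3' UTR of ULK2, an autophagy kinase, scored 148 in dnTCF1EWT at 2 h only, with 1 WRE. The third-ranked mutant peak of this class, in PRTFDC1, scored 64.8 with none of the 3 motifs.

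At 9 h the leading 3' UTR peak was that of NAT16 (214, 2 WREs, chr7:100813962-100814365), whose nearest TSS, 5311 bp away, was that of the neuropeptide precursor gene VGF. The peak was absent from the other lists. The 3' UTR of CCR6, the receptor for the chemokine CCL20, followed KCTD7 with a score of 99.2. Both 5' UTR peaks were weak or moderate. In the mutant at 2 h a peak of 109 with 1 WRE covered exon 2 of 10 of CRYZ, a quinone reductase, and the overlapping dnTCF1EWT peak of 103 was annotated outside these classes. In dnTCF1EWT at 9 h exon 2 of 4 of ADIPOQ, the adiponectin gene, had a peak of 57.1.

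The strongest of all 392 peaks lay at the transcript end of AMZ1, a metallopeptidase gene, at chr7:2754825-2755413. It scored 1781 in dnTCF1EWT at 2 h, the rank of 6 among 5585 peaks, and 476 at 9 h, and was in neither uninduced list and none of the mutant lists. The 2 h peak held 5 short Helper sites, 1 Helper site and no WRE, and the 9 h peak, 492 bp long against 589 bp, held 3 short Helper sites only. Its nearest TSS was that of AMZ1 itself, 35956 bp upstream.

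Other transcript ends differed in which lists held them. SHISA8, a gene of the Shisa family, scored 177 at 2 h and 51.9 at 9 h in dnTCF1EWT and had none of the 3 motifs. NDUFA8, a subunit of respiratory complex I, scored 167 for dnTCF1EWT and 114 for dnTCF1Emut at 2 h, with 1 WRE. CYP2J2, which makes epoxides of arachidonic acid, scored 165 and 173 in the same lists and had none of the 3 motifs. CHI3L1, a secreted chitinase-like protein, had a peak of 165 at 2 h, 158 at 9 h and 60.8 in dnTCF1Emut at 2 h, each with 2 WREs. SEC14L1, a lipid-binding protein gene, went the other way in dnTCF1EWT, from 88.6 at 2 h to 143 at 9 h.

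The highest mutant peak of these classes was the transcript end of AKAIN1, an inhibitor of A-kinase anchoring, at chr18:5142734-5143429. It scored 815 at 2 h and 129 at 9 h in dnTCF1Emut and had no overlapping peak in any dnTCF1EWT list. It held 1 short Helper site and no WRE, at a GC content of 36.8%. The third-ranked mutant TTS peak, APOB, is described with the AT-rich peaks.

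Non-coding transcripts held few strong peaks. UCA1, a long non-coding RNA raised in several carcinomas, had a peak over the last of its 3 exons that scored 331 in dnTCF1EWT at 2 h, with 1 WRE and 1 short Helper site (chr19:15946736-15947265). At 9 h the overlapping peak scored 99.5 and was classed as TTS. LOC100129034, an uncharacterized transcript, scored 299.55 at 2 h only, with 1 Helper site (chr9:127119213-127119650). The third, in GK5, a glycerol kinase gene, scored 62.1. At 9 h none of 19 non-coding peaks passed 70.7, the score of a peak at the heat-shock pseudogene HSP90AB2P, followed by FAM86JP (69.3) and LINC00942 (68.4).

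In dnTCF1EWT these peaks scored much like the whole list. The median Peak Score was 57.6, 60.3 and 56.7 in dnTCF1EWT at 0, 2 and 9 h against 55.6, 59.0 and 56.9 over all peaks. In dnTCF1Emut it was 79.6, 66.3 and 77.6 against 78.0, 81.1 and 66.1. Scores of 100 or more were reached by 23 of 90 (25.6%) in dnTCF1EWT at 2 h, where 16.6% of all peaks did, and by 14 of 236 (5.93%) at 9 h, where 4.35% did. In dnTCF1Emut at 2 h they were reached by 8 of 26 (30.8%), against 35.8% of the list. So most of the 236 members at 9 h lay close to the score of 50 at which the lists begin, with an upper quartile of 64.5.

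**Figure D2:**
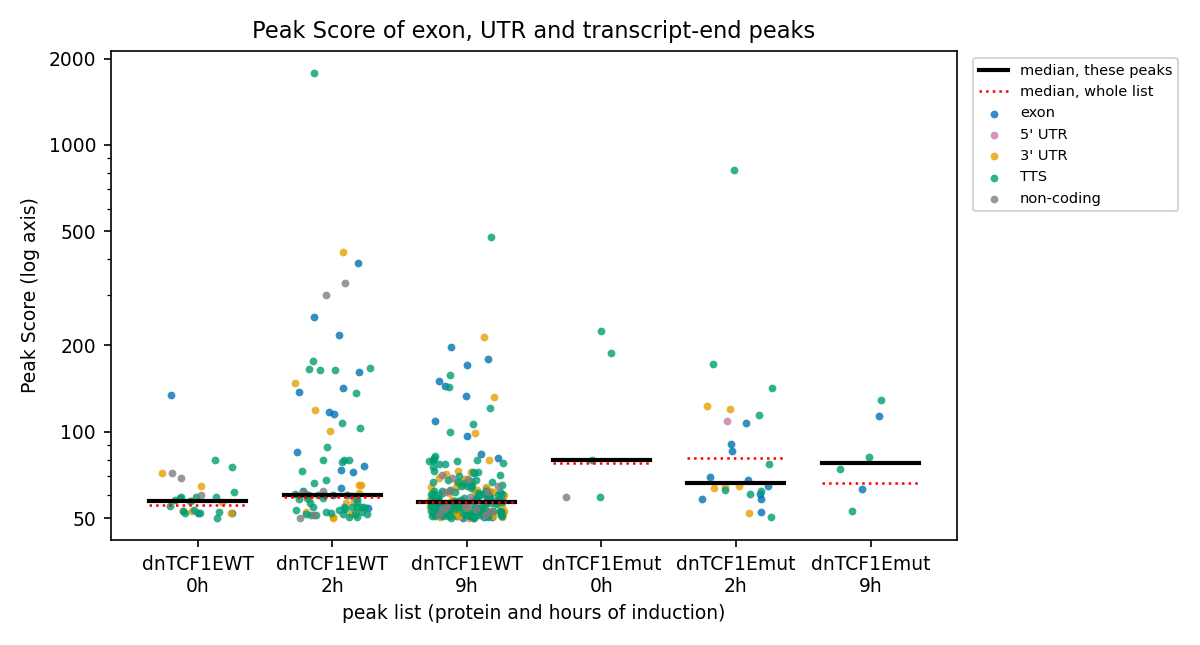
Peak Score (log axis) of each exon, UTR and transcript-end peak by list, colored by HOMER class, with the median of these peaks (black line) and of the whole list (red dotted line). The AMZ1 peak at 1781 and the AKAIN1 peak at 815 stand above the other peaks of their lists, and the 9 h dnTCF1EWT peaks crowd near 50.

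WRE sites were less frequent in the dnTCF1EWT than in the dnTCF1Emut peaks of these classes at 2 h. They were present in 15 of 90 dnTCF1EWT peaks (16.7%, interval 10.4 to 25.7) and in 14 of 26 dnTCF1Emut peaks (53.8%, 35.5 to 71.2), where the whole lists had 16.3% and 36%. The odds ratio was 0.171 (adjusted p = 0.0028, two-sided Fisher's exact test, Benjamini-Hochberg over 6 motif tests). The density was 0.653 WREs per kb against 2.27, and the median peak length 208.5 bp against 389.5 bp. Strong and weak peaks differed in this respect. Below a score of 100, 6 of 67 dnTCF1EWT peaks (8.96%; whole list 9.25%) and 11 of 18 mutant peaks (61.1%; whole list 30.6%) held a WRE. At 100 or more 9 of 23 (39.1%; whole list 51.8%) and 3 of 8 (37.5%; whole list 45.5%) did. Above a score of 67 the odds ratio was 1.23, among the top 1000 peaks 1.50 and among members of 300 to 500 bp, where 7 of 18 and 10 of 16 held a WRE, 0.382, none of which passed the threshold. Over strata of 5% GC it was 0.218 by the Mantel-Haenszel method and still passed. The parts of score, peak length and GC content in the difference cannot be told apart further at these counts.

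Several of the mutant's WRE-bearing peaks at these lower scores are named here, chosen after their values were seen. They included the last exons of the zinc-finger genes ZNF350 (64.5, 2 WREs) and ZNF227 (58.4, 1 WRE), exon 5 of 5 of AHNAK, a giant scaffold protein (67.8, 2 WREs), and exon 16 of 25 of F5, coagulation factor V (60.4, 1 WRE). The 3' UTR of the tumor suppressor RASSF10 (63.5, 1 WRE) was another. Besides the TTS peaks of CHI3L1 and RHOB, with 2 WREs each, the TTS peak near SAMD13 held 3 WREs at a score of 50.6, the lowest of the 26.

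**Figure D3:**
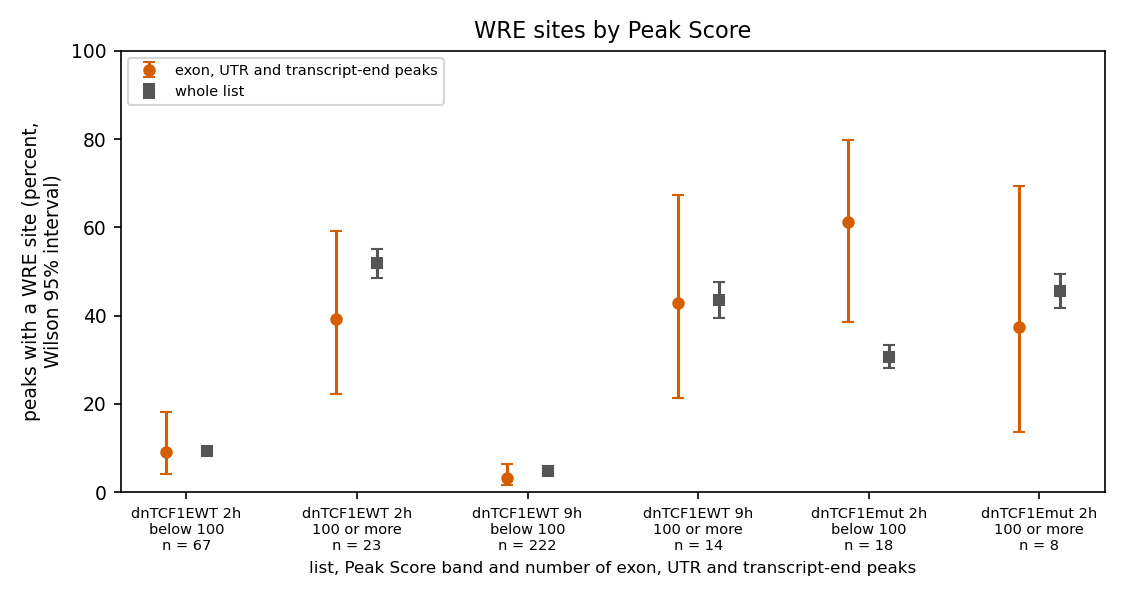
Percent of peaks with a WRE site, with Wilson 95% intervals, in 3 induced lists, below and at or above a Peak Score of 100, for exon, UTR and transcript-end peaks (circles) and the whole list (squares). At 100 or more the circles lie at 39.1%, 42.9% and 37.5%; below 100 they lie at 8.96%, 3.15% and 61.1%.

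Over time, WRE sites were rarer among the dnTCF1EWT peaks at 9 h than at 2 h, and so they were in the whole lists. They were found in 13 of 236 peaks at 9 h (5.51%, interval 3.25 to 9.20; whole list 6.56%) and in 15 of 90 at 2 h (16.7%; whole list 16.3%). The odds ratio of 9 h against 2 h was 0.291 (adjusted p = 0.0093, Fisher's exact test). Both shares were near those of the whole lists, so the fall was not particular to these peaks. At scores of 100 or more, 6 of 14 peaks (42.9%) held a WRE at 9 h, next to 39.1% at 2 h, and the odds ratio among the top 1000 peaks was 0.99 (Fisher's exact test, adjusted p = 1.0; alternatives from 0.0039 to 1.0). Over strata of 5% GC it was 0.472 and did not pass the threshold. None of the 29 uninduced dnTCF1EWT peaks held a WRE, which allows a share of up to 11.7%, and 5.66% of that whole list did. Against that list the 2 h list gave an odds ratio of 12.1 with 0.5 added to each cell, which is no bound (adjusted p = 0.041, Fisher's exact test), and the call was lost above a score of 67, beyond 5000 bp and without the TTS class.

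WRE-bearing peaks had a higher median score than the rest in the dnTCF1EWT lists and a lower one in the mutant list. Their median score was 115 at 2 h and 99.5 at 9 h, against 60.0 and 56.5 for peaks without a WRE. In dnTCF1Emut at 2 h it was 63.2 with and 88.5 without a WRE. These are descriptions of 15, 13 and 14 peaks, and peak length differed too. Its medians with and without a WRE were 400 and 200 bp in dnTCF1EWT at 2 h, and 339 and 420 bp in dnTCF1Emut at 2 h.

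Helper sites were present in 8 of the 90 dnTCF1EWT peaks at 2 h (8.89%, interval 4.57 to 16.6; whole list 7.23%), in 7 of 236 at 9 h (2.97%; whole list 4.83%) and in 1 of 26 mutant peaks at 2 h (3.85%; whole list 4.35%). None of 3 tests passed the threshold. The odds ratio was 2.44 for dnTCF1EWT against dnTCF1Emut at 2 h (adjusted p = 0.68), 0.313 for 9 h against 2 h (adjusted p = 0.052) and 6.08 for 2 h against 0 h (adjusted p = 0.24; 0 of 29 peaks at 0 h, whole list 3.83%), each by Fisher's exact test. The test of 9 h against 2 h passed with members beyond 1000 bp (odds ratio 0.360) and without peaks that overlapped uninduced ones (0.306). Short Helper sites were in 59 of 90 (65.6%; whole list 54.1%), 153 of 236 (64.8%; 55.4%) and 12 of 26 peaks (46.2%; 38.9%), or 5.18, 5.67 and 1.29 sites per kb.

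No dnTCF1EWT peak of these classes at 2 h held both a WRE and a Helper site, and the only one at 9 h was the NAIP exon. Over all peaks 110 of 5585 and 107 of 12996 did, and the counts among these peaks are too small to be told apart from those shares. Among the Helper-bearing peaks at 2 h, AMZ1, PLEKHM3, LOC100129034 and ABHD6 lay between 251 and 1781, and LINC00923, EYA3 and GINM1 between 50.4 and 59.8. At 9 h NAIP, EPB41L2 and the transcript end of ACOXL, which lies 2745 bp upstream of the TSS of the pro-apoptotic gene BCL2L11, lay between 121 and 197. The remaining Helper peaks at 9 h did not pass 62.6, under the upper quartile of 64.5 of all members in that list.

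**Figure D4:**
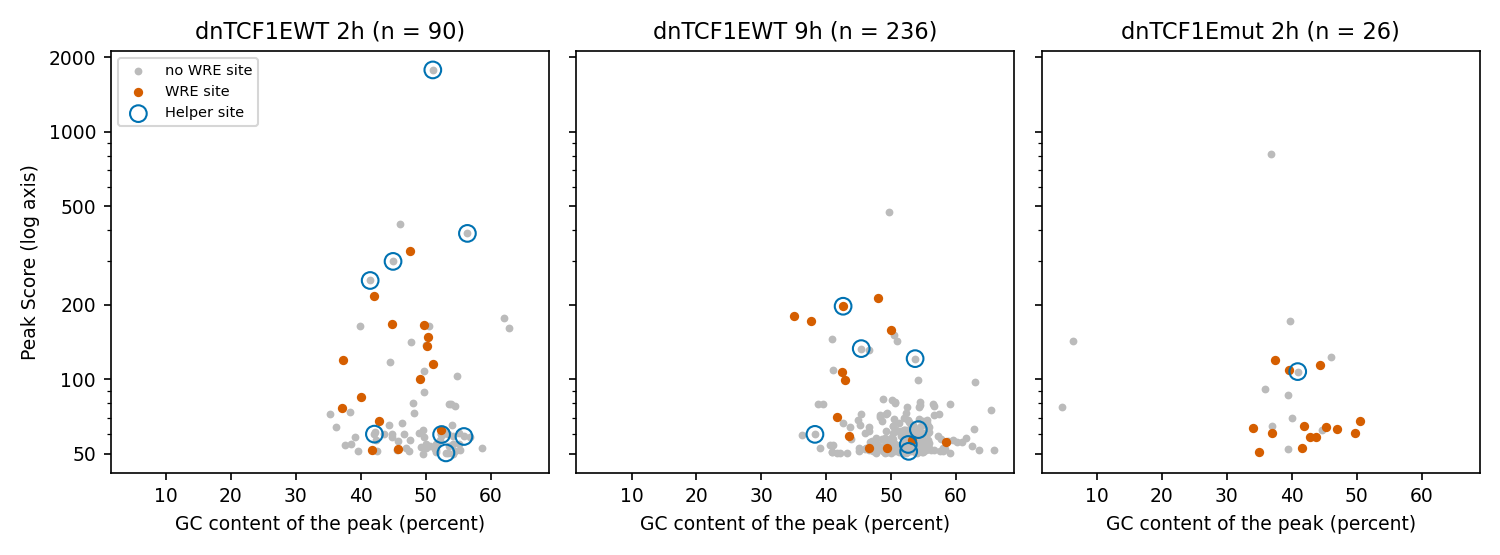
Peak Score (log axis) against GC content of each exon, UTR and transcript-end peak in the dnTCF1EWT 2 h, dnTCF1EWT 9 h and dnTCF1Emut 2 h lists; orange points hold a WRE site and blue rings a Helper site. The dnTCF1EWT peaks at 9 h gather near 52% GC and a score of 57, and WRE-bearing mutant peaks lie between 34.1 and 50.5% GC, mostly below 100.

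GC content was lower in the mutant lists. Its median over these peaks was 50.7, 49.7 and 52.2% in dnTCF1EWT at 0, 2 and 9 h and 5.90, 39.8 and 24.3% in dnTCF1Emut. The whole lists stood at 49.7, 48.9 and 51.3% and at 6.32, 37.1 and 35.6%. Peaks below 15% GC were absent among the 355 dnTCF1EWT members. They were 4 of 5 mutant members at 0 h (whole list 82.9%), 2 of 26 at 2 h (20.9%) and 3 of 6 at 9 h (35%).

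Among the AT-rich members APOB and HERPUD2 recurred in all 3 mutant lists, the uninduced one included. The transcript end of APOB, the apolipoprotein of low-density lipoprotein, scored 224 at 0 h, 142 at 2 h and 73.9 at 9 h in dnTCF1Emut, at GC contents of 8.40, 6.31 and 5.53% (chr2:21223548-21224178 at 0 h). That of HERPUD2, a ubiquitin-like domain gene related to the endoplasmic reticulum stress response, scored 189, 77.5 and 81.4 at 5.90, 4.55 and 0.253% (chr7:35671069-35671695). Neither had an overlapping dnTCF1EWT peak, and neither held any of the motifs. The third uninduced mutant peak, at the transcript end of PTGES3L, scored 79.6 at 4.58% GC and was not listed after induction, like the weaker one at IL1RL1 (59.0), while that at TCHHL1 (53.1) was listed at 9 h only. HERPUD2 was also the third-ranked member of the dnTCF1Emut 9 h list, after AKAIN1 and WBP4.

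Few of these peaks overlapped a peak of an uninduced list. They were 3 of 90 in dnTCF1EWT at 2 h (3.33%; whole list 1.67%), 3 of 236 at 9 h (1.27%; 1.31%), 2 of 26 in dnTCF1Emut at 2 h (7.69%; 17.4%) and 2 of 6 at 9 h (33.3%; 33.9%). In the mutant both were APOB and HERPUD2.

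The 392 peaks made 359 distinct regions, counting any overlap, of which 326 were in 1 list, 24 in 2 and 9 in 3. No region was in 4 or more lists. At 2 h, 16 of 90 dnTCF1EWT members (17.8%, interval 11.2 to 26.9) were overlapped by a 9 h peak, where 14.9% of the whole list was. Of the 236 members at 9 h, 16 (6.78%) were overlapped by a 2 h peak, against 6.47% of the list. Both shares were near those of all peaks. In 12 of the 16 pairs the 2 h score was higher, with a median fold of 1.40 and a log2 ratio from -0.69 to 1.91 (median 0.49). Over all overlapped 2 h peaks 66.1% were higher, with a median log2 ratio of 0.33.

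Between the proteins, 8 of 90 dnTCF1EWT members at 2 h (8.89%, interval 4.57 to 16.6) were overlapped by a dnTCF1Emut 2 h peak, where 9.44% of the list was. From the mutant's side 9 of 26 (34.6%, 19.4 to 53.8) were overlapped by a dnTCF1EWT 2 h peak, against 27.9%. The 8 shared dnTCF1EWT members were KCTD7, ABHD6, NDUFA8, CHI3L1, CYP2J2, RHOB, ARID5B and CYP24A1, the last a vitamin D hydroxylase gene that scored 85.0 and, in the mutant, 107. The dnTCF1EWT score was higher in 5 of the 8, with a median fold of 1.78 (log2 0.83), and in 63.6% of all overlapped peaks, with a median log2 ratio of 0.45. Of the mutant 2 h members 3 (11.5%) were overlapped at 9 h, against 12.4% of the list, and of the dnTCF1EWT 9 h members 1 (0.424%), WBP4, by a mutant 9 h peak, against 0.685%.

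**Figure D5:**
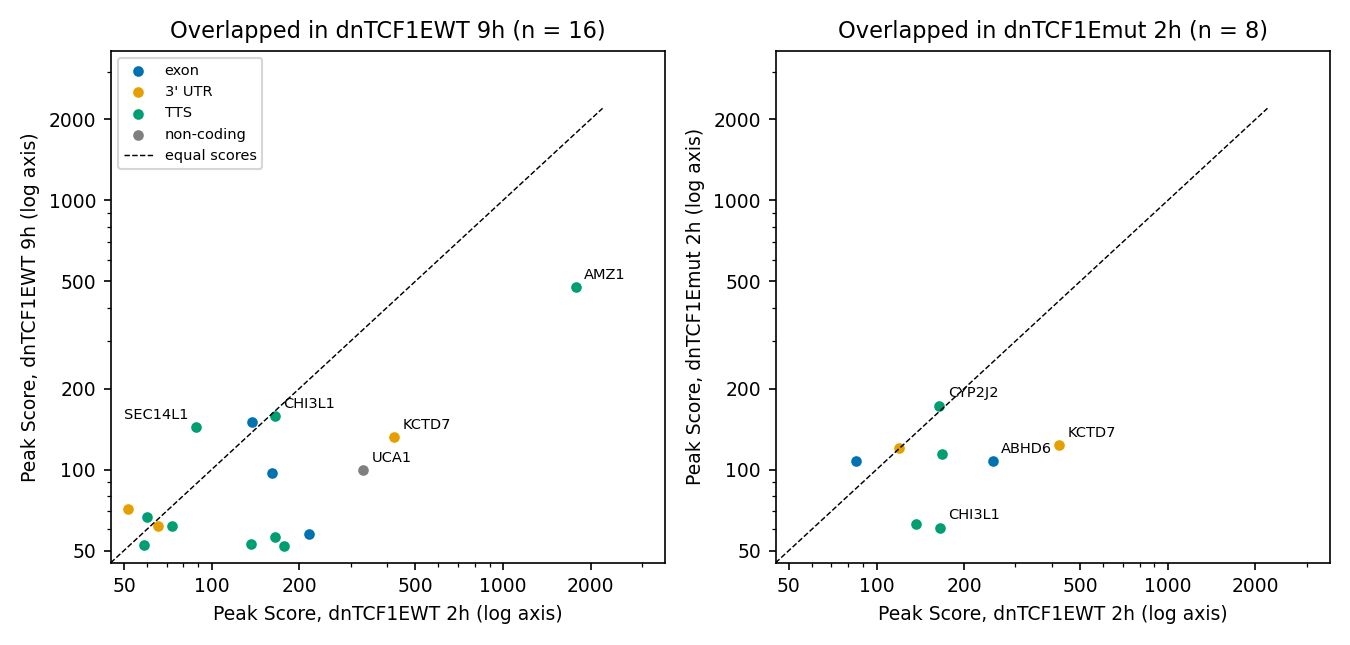
Peak Score (log axes) of dnTCF1EWT 2 h exon, UTR and transcript-end peaks against that of the overlapping peak in the dnTCF1EWT 9 h list (left, 16 pairs) and in the dnTCF1Emut 2 h list (right, 8 pairs), colored by HOMER class; the dashed line marks equal scores. In 12 of 16 and 5 of 8 pairs the point lies below the line, and SEC14L1 and CYP2J2 lie above it.

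The gene that holds a peak was often not the gene with the nearest TSS. Of the 378 peaks whose transcript could be matched to a RefSeq gene, 180 (47.6%, interval 42.6 to 52.7) had their nearest TSS at a gene of another symbol. This was so for 19 of 56 exon peaks (33.9%), 43 of 88 in 3' UTRs (48.9%), 104 of 208 at transcript ends and 13 of 24 in non-coding transcripts (54.2%). In 107 of the 180 the peak lay upstream of that TSS. By list, the share was 44.3% in dnTCF1EWT at 2 h, 50.9% at 9 h and 26.9% (13.7 to 46.1) in dnTCF1Emut at 2 h. Genes were compared by symbol, so 1 gene under an older or LOC name could count as another gene. LINC00923 with LOC91948 as its nearest gene was counted so. All these shares may therefore be too high, that of non-coding transcripts above all. Members were also chosen to lie more than 2000 bp from any TSS, and most lie at transcript ends, so the choice itself bears on these shares. No such share was counted over other peaks, so it is not known whether these peaks are particular in it.

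Few of these peaks, and few of all peaks, were nearest to a gene from a list of 47 Wnt pathway and target genes. Most of the 47 genes were nearest to some peak in dnTCF1EWT at 2 and 9 h. Counting all peaks, 38 of the 47 genes were nearest to at least 1 in dnTCF1EWT at 2 h, 34 at 9 h and 16 in dnTCF1Emut at 2 h. The listed genes were nearest to 2 of the 90 members and 74 of all 5585 peaks in dnTCF1EWT at 2 h. They were nearest to 2 of 236 and 90 of 12996 at 9 h, and to 1 of 26 and 29 of 1883 in dnTCF1Emut at 2 h. The members were those at UCA1 and RHOB. RHOB, a small GTPase gene, had a TTS peak 3365 bp from its TSS that scored 136 in dnTCF1EWT at 2 h, 53.0 at 9 h and 62.8 in dnTCF1Emut at 2 h, with 2 WREs and no Helper site each time (chr2:20650001-20650400). UCA1, described above, was listed for dnTCF1EWT only.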

How the data were processed

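ChIP-seq of FLAG-tagged dnTCF1EWT and dnTCF1Emut was analysed at 0, 2 and 9 h as 6 lists, 1 for each condition. Per the submitters' processing notes, CASAVA 1.8.2, Bowtie2 2.0.0, MACS 1.3, HOMER 3.16 and genome build hg19 were used, and the authors called peaks on pooled duplicates against input. The deposited Peak Score is the MACS score, identical to the score in the deposited peak files for all peaks, and HOMER's GC content was deposited as a fraction, converted here to percent. Motif counts per peak were deposited by the authors, and whether both strands were searched is not given in the sources used here.

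Members were the peaks classed as exon, 5' UTR, 3' UTR, TTS or non-coding beyond 2000 bp from the nearest TSS. Transcripts were matched to gene symbols in RefSeq (GRCh38.p14, names only), where 14 of 392 had no match. Lists were compared with two-sided Fisher's exact tests, with Benjamini-Hochberg adjustment over 6 share tests and 6 motif tests (Python 3.11.15, SciPy 1.17.1, statsmodels 0.14.6), and with Wilson 95% intervals. Functions were tested on simulated data. Shared peaks overlapped by at least 1 base. Named peaks were the 3 highest-scoring of each class in the dnTCF1EWT 2 h, dnTCF1EWT 9 h and dnTCF1Emut 2 h lists and of each other list, members with 2 or more Helper sites in an induced list, regions in 4 or more lists, and members nearest to a Wnt list gene. Some other peaks were named outside this rule after their values were seen, among them ACOXL, EYA3, GINM1, LINC00923, CYP24A1, IL1RL1 and TCHHL1. Members and lists were chosen with earlier results of these data known. Peaks of one list share libraries and are not replicates. Input libraries and read counts were not analysed here, and no peak sequence is shown because no hg19 genome was used here. One member is included in the counts but not described here.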

Additional observations from a re-analysis of the deposited data

How the results depend on the processing

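Of 110 alternatives over 15 results, 93 left the call as it was or moved the value by less than the counting interval. Of 95 odds ratios 12 crossed 1, of which 9 belonged to results without a call. No share of exon, UTR and transcript-end peaks differed between lists under the alternatives run. The WRE odds ratio of dnTCF1EWT against dnTCF1Emut at 2 h turned to 1.50 among the top 1000 peaks, 1.23 above a score of 67 and 1.07 at 100 or more, and lost its call without the TTS class (0.191) and at 300 to 500 bp (0.382). The score of 100 and the length limits were chosen after seeing the data, as was leaving out peaks below 15% GC, run for 2 share tests only, neither of which had a call. The WRE odds ratio of dnTCF1EWT at 9 h against 2 h lost its call among the top 1000 peaks (0.99), above 67 (0.367), without TTS (0.340) and over GC strata (0.472). That of 2 h against 0 h lost it above 67 (7.22), beyond 5000 bp (9.63) and without TTS (7.66). The Helper odds ratio at 9 h against 2 h passed the threshold beyond 1000 bp (0.360) and without peaks overlapping uninduced ones (0.306). Above 67, the overlapped shares rose to 35.3% (dnTCF1EWT 2 h by 9 h), 23.5% (by dnTCF1Emut 2 h) and 53.8% (dnTCF1Emut 2 h by dnTCF1EWT 2 h). The cause was not tested, beyond the smaller number of peaks. GC strata gave no value for the motif tests against 0 h, where no uninduced peak held the motif, and peaks overlapping uninduced ones were not left out of pairs with an uninduced list. No paired analysis was possible because each condition is 1 pooled list. Depth is unknown, so a peak missing from a list may only lie below its score limit.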

Other observations

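In dnTCF1EWT at 9 h, chromosome 19 held 28 of the 236 exon, UTR and transcript-end peaks (11.9%), where it held 546 of all 12996 peaks (4.20%). Chromosome 1 held 20 (8.47%), against 9.33% of the list. At 2 h chromosome 19 held 5 of 90 (5.56%; whole list 3.44%) and in dnTCF1Emut at 2 h 2 of 26 (7.69%; 1.33%). Members lie at annotated transcripts by rule and other peaks need not, and the gene content of each chromosome was not taken into account. Separately, zinc-finger genes with a ZNF symbol hosted 4 of these peaks in dnTCF1EWT at 2 h, 9 at 9 h and 2 in dnTCF1Emut at 2 h, of which 1, 6 and 2 lay on chromosome 19. The peak lay in the last exon in 3, 4 and 2 of them, and hosts of all other peaks were not counted. The highest were in ZNF519 (145, 9 h), ZNF780B (76.2, 2 h) and ZNF350 (64.5, dnTCF1Emut 2 h). These genes were picked after their values were seen, and how reads shared between family members were placed is not given in the sources used here.

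MUC12, a transmembrane mucin gene, had peaks at separate places in exon 2 of 12, at 52.1 in dnTCF1EWT at 0 h and 51.7 at 9 h, with 5 and 3 short Helper sites. Unlike the MUC2 exon, the place listed at 0 h had no overlapping peak after induction. HOMER placed 49.5% of all dnTCF1EWT peaks at 2 h and 76.2% at 9 h in SINE repeats, and 78.7% of dnTCF1Emut peaks at 0 h in simple repeats. A peak classed as exon or TTS carries no repeat name, so the repeat content of the peaks described here was not measured.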
